A study of Mus musculus with 4 samples.

Results

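The genes described here encode the mitochondrial respiratory chain and the mitochondrial ribosome (mitoribosome). They were 43 of the 4099 complete gene rows of a deposited single-cell count table, chosen by symbol alone. Symbols beginning with Nduf, Uqcr, Atp5, Mrpl or Mrps, or with Cox and a digit, and those of the Sdh subunits of complex II were taken, and symbols of pseudogenes were left out. The members comprised 19 subunits of the chain, 5 assembly factors and 19 proteins of the mitoribosome. Of the chain subunits, 10 belonged to complex I, 2 to complex II, 1 to complex III, 2 to complex IV and 4 to complex V. Of the mitoribosomal proteins, 11 belonged to the large subunit and 8 to the small. The table covered chromosome 1 to part of chromosome 5, where 12, 12, 8, 10 and 1 members lay on chromosomes 1 to 5, so most subunits of these complexes and all genes of the mitochondrial genome were not analysed here. All 43 members had 50 or more UMIs (unique molecules counted per gene and cell) in each of the cell sets described below.

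The cells came from tumours of 4T1, a transplantable mammary carcinoma line, grown in BALB/c mice. The study's groups were wild-type and Mif-depleted (Mif encodes a cytokine). Each group had 2 samples of 3 pooled tumours, and live CD45-positive cells were sorted before 10x Genomics library preparation. Barcodes ended in a suffix from 1 to 4, and nothing in the labels or headers ties a suffix to a sample. The effect of Mif depletion was therefore not analysed here and no value compares the groups. Counts were used for 13162 cells of suffix 1 (29567302 UMIs, median 1224.5 per cell) and 3221 cells of suffix 2 (8578852 UMIs, median 1712), which shared 12 barcode sequences. Cell type names were those the authors deposited, and doublets were not called. Levels are UMIs per 10000 counted UMIs, with the UMIs of the neutrophil genes S100a8 and S100a9 left out of the total because they made up a large part of the neutrophils' counts. Values in brackets are exact 95% intervals, for counting error alone. Cells are not replicates and no suffix could be tied to a sample or group, so no test was run. A ratio divides the level in cells of a name by that in the remaining cells with the same suffix ("other cells"), and a gene was called higher or lower where the ratio reached 2-fold. The share of all genes past that fold in the same comparison is given as the background. The deposited names may themselves rest on some of these genes, so all ratios are descriptions.

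Complexes I, III and IV of the respiratory chain pass electrons to oxygen and pump protons across the inner mitochondrial membrane, complex II feeds in electrons from succinate without pumping, and complex V uses the proton gradient to make ATP. Most subunits are encoded in the nucleus and are joined to a core encoded by mitochondrial DNA, which the mitoribosome translates. Mature neutrophils are known for few mitochondria and a metabolism that leans on glycolysis, and osteoclasts, the bone-resorbing cells of the macrophage lineage, for being rich in mitochondria.

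The names were checked against marker genes. Cells named neutrophil had the 4 neutrophil markers other than S100a8 and S100a9 (Csf3r, Cxcr2, Hdc and Mmp9) at 162 in suffix 1, against 29.2 in other cells. In suffix 2 the difference was smaller, with 146 against 69.3. Mmp9 is also an osteoclast marker, and the same 4 genes reached 297 in suffix 1 and 406 in suffix 2 in cDC1_Clec9a. Cells named cDC1_Clec9a carried markers of another cell type. The 4 measured osteoclast markers (Ctsk, Slc9b2, Atp6v0d2 and Mmp9) summed to 878 there against 23.9 in other cells in suffix 1 and to 1188 against 28.4 in suffix 2. Batf3, the only measured marker of conventional dendritic cells, stood at 0.970 against 0.420 in suffix 1 (log2 1.21 [0.86, 1.54]) and at 0.386 against 0.373 in suffix 2 (log2 0.05 [-0.49, 0.55]). Ctsk, the collagen-degrading protease of osteoclasts, alone reached 516 in suffix 1 and 708 in suffix 2. Cells named pDC also carried the osteoclast markers, at 238 and 295 against 47.3 and 170 in other cells. The deposited names are kept below only as labels.

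Cells named cDC1_Clec9a had the highest respiratory chain level in both suffixes and neutrophils the lowest in both. In suffix 1 the 19 respiratory chain genes summed to 405 [401, 410] in cDC1_Clec9a, 284 [281, 288] in pDC, 125 [121, 129] in CD4_Tn and 98.2 [97.2, 99.1] in neutrophils, and the 18 other names drawn lay between 158 and 217. In suffix 2 the same names stood at 476 [472, 480], 329 [323, 335], 155 [142, 168] and 102 [99.2, 104]. Among names with 20 or more cells, the order at both ends of the scale was the same in the second set of cells, while neighbours among the middle names often had overlapping intervals. With Mrpl33 in the sum the mitoribosome spanned a narrower range than the chain. Its 19 genes summed to 94.9 [92.8, 97.0] in cDC1_Clec9a, 90.9 [88.9, 92.9] in pDC and 83.7 [81.3, 86.3] in Mono_Nr4a1 in suffix 1, and to 53.6 [52.9, 54.2] in neutrophils and 41.3 [39.0, 43.7] in CD4_Tn. In suffix 2 Mono_Nr4a1 (93.6 [86.2, 101]), pDC (92.4 [89.4, 95.5]) and cDC1_Clec9a (89.2 [87.3, 91.1]) did not differ beyond their intervals. Without Mrpl33, which was highest in neutrophils in suffix 1, the other 18 genes ran from 21.2 [20.8, 21.7] in neutrophils to 87.8 [85.8, 89.9] in cDC1_Clec9a in suffix 1 and from 20.4 [19.3, 21.5] to 80.6 [78.8, 82.4] in suffix 2, so the narrower range rested on that gene in suffix 1 and in large part in suffix 2.

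**Figure D1:**
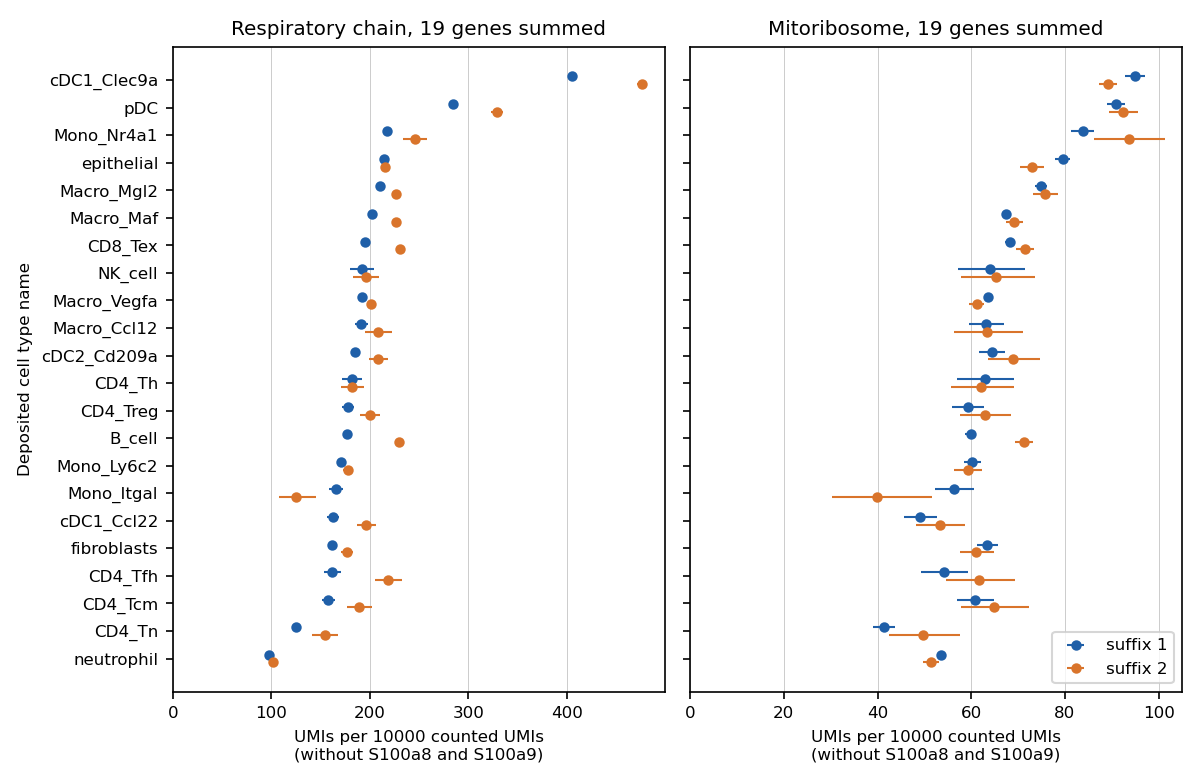
Summed level of the 19 respiratory chain genes (left) and the 19 mitoribosome genes (right) by deposited cell type name, in UMIs per 10000 counted UMIs without S100a8 and S100a9. Points are suffixes 1 and 2 and bars are exact 95% counting intervals, some smaller than the points. The chain reaches 405 and 476 in cDC1_Clec9a and 98.2 and 102 in neutrophils, and the mitoribosome varies less with Mrpl33 in its sum, as here.

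Sequence upstream of the members was examined because the chain and mitoribosome genes moved together in several names. RefSeq promoters on GRCm38.p6, from 250 bases before to 50 after the start, were matched for 36 of the 43 members. Both strands were searched for the palindromic site of the nuclear respiratory factor NRF1 (the capitals in Ndufaf4), for CCGGAAG, a site of ETS factors such as GABP, and for AAGATGGC, a site of YY1. The letters of the 3 motifs do not contain each other. The NRF1 letters occurred in 3 of 36 members (8.33%) and in 0.977% of all 27025 promoters. The ETS letters occurred in 10 members (27.8%) and in 9.12% of all promoters. The YY1 letters occurred in 4 members (11.1%) and in 2.88%. Among the 3197 genes of the table with a promoter, the shares were 1.44%, 16.4% and 3.97%. Below are the promoters of the members with the highest ratio in cDC1_Clec9a (Sdhb, chr4:140961021-140961320), the highest in neutrophils (Mrpl33, chr5:31613701-31614000) and the lowest in neutrophils (Ndufaf4, chr4:24897833-24898132), all on the plus strand. Capitals mark the ETS letters in Sdhb (bases 257 to 263 of the window) and Mrpl33 (248 to 254) and the NRF1 letters in Ndufaf4 (138 to 147).
Sdhb: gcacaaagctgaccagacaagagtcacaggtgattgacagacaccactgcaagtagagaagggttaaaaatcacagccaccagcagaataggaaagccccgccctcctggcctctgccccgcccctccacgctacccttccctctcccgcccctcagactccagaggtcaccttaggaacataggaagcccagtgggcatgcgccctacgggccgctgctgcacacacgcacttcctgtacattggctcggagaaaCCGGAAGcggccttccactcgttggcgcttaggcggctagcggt
Mrpl33: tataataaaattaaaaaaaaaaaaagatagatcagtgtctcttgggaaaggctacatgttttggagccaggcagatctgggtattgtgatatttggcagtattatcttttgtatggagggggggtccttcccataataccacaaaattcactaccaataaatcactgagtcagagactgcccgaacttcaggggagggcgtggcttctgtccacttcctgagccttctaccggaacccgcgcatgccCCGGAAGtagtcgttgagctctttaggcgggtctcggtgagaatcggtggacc
Ndufaf4: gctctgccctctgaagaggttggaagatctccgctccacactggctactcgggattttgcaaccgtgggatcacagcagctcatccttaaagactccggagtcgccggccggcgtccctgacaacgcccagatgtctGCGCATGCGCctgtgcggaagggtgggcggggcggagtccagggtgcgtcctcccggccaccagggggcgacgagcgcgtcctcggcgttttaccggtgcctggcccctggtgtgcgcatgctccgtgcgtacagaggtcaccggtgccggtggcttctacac
A match describes the letters only.

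In cells named cDC1_Clec9a, 26 of the 43 members were higher by 2-fold or more in suffix 1, where the background was 10.2%, and 23 in suffix 2, where it was 9.24%. Of these, 22 were the same genes in both suffixes. The median log2 ratio of the members was 1.16 and 1.01, beside -0.40 and -0.51 for all genes. Only 2 members were lower in suffix 1 (Cox4i2 and Mrpl33, background 33.8%) and 1 in suffix 2 (Cox4i2, background 34.2%). Mrpl33 stood at log2 -1.10 and -0.81, but at -0.60 against other cells without neutrophils, at -0.70 with S100a8 and S100a9 in the total and at 0.46 in UMIs per cell. In suffix 1, 31 of the 43 members had their highest level in this name.

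Of the 2 measured subunits of complex II, Sdhb stood out in these cells. Sdhb, the iron-sulfur subunit of succinate dehydrogenase, had a level of 16.6 [15.7, 17.5] in cDC1_Clec9a in suffix 1 and 3.89 elsewhere, which is a log2 ratio of 2.09 [2.00, 2.17]. In suffix 2 Sdhb stood at 16.5 against 3.91, with a log2 ratio of 2.08 [1.99, 2.17], the highest of any member in this name in both suffixes. The next level of Sdhb was 9.13 in pDC and 9.06 in suffix 2, and no other name drawn exceeded 5.24 in either suffix. Sdhc, a membrane anchor of the same enzyme, stood at 8.11 against 2.68 in suffix 1 and 9.66 against 2.75 in suffix 2, log2 ratios of 1.60 [1.48, 1.71] and 1.81 [1.70, 1.93]. The Sdhc ratios were close to the highest of complex I, 1.65 and 1.81.

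Complex I, the NADH dehydrogenase and largest complex of the chain, was higher throughout. Its 10 measured subunits had log2 ratios from 0.97 to 1.65 in cDC1_Clec9a in suffix 1, and 9 of 10 passed 2-fold. Ndufs1, which carries iron-sulfur clusters of the electron path, had the highest of these ratios, with 4.34 against 1.38 (log2 1.65) in suffix 1 and 4.65 against 1.33 (log2 1.81) in suffix 2. Ndufa8, an accessory subunit, lay just inside the fold in suffix 2 and just outside it in suffix 1, with log2 ratios of 1.08 [1.00, 1.17] and 0.97 [0.89, 1.06]. For complex I as a whole the level was 138 against 53.4 in suffix 1 and 160.0 against 61.1 in suffix 2.

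The single members of complexes III and IV differed from each other. Cox5b, a nuclear subunit of cytochrome c oxidase, stood at 39.2 against 17.1 in suffix 1 and at 49.997 against 21.3 in suffix 2, log2 ratios of 1.20 and 1.23. Uqcrh, the hinge protein of complex III, stood at 45.1 against 26.7 and at 51.0 against 28.9, log2 ratios of 0.76 and 0.82 that did not reach 2-fold. Uqcrh is uncertain here, since the annotation holds pseudogenes named after it whose reads the counting may have shared. Cox4i2, the alternative isoform of a cytochrome c oxidase subunit, had 0 UMIs in these cells in both suffixes. A floor of 3 counts for the name puts Cox4i2 at least 8.89-fold lower than in other cells in suffix 1 and at least 18.7-fold lower in suffix 2.

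Complex V members were all above other cells. Atp5g3, which encodes the ring-forming subunit c, stood at 42.6 against 14.4 in suffix 1 and 47.4 against 16.6 in suffix 2, log2 ratios of 1.57 and 1.51. Atp5c1, the central-stalk gamma subunit, had log2 ratios of 1.35 and 1.33, and Atp5f1, of the peripheral stalk, 1.06 and 1.14. Atp5e, the small epsilon subunit, was nearest to other cells, with log2 ratios of 0.70 and 0.68. Atp5c1 also has a named pseudogene. All 5 assembly factors had ratios above 0 in suffix 1, and Ndufaf5, a complex I assembly factor, was highest among them, at 0.983 against 0.328 (log2 1.58 [1.23, 1.92]) and 1.09 against 0.343 in suffix 2 (1.67 [1.33, 2.01]).

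Mitoribosome genes were raised less than the chain in cDC1_Clec9a. Their ratios had a median of 0.84 in suffix 1 against 1.42 for the chain genes with UMIs, and 9 of 19 passed 2-fold. Mrpl15 (6.93 against 2.40, log2 1.53) and Mrps28 (6.30 against 2.22, log2 1.51) led in suffix 1, and stood at log2 1.06 and 1.29 in suffix 2. Both encode structural proteins of the mitoribosome, of its large and small subunit. The count of chain UMIs for each mitoribosome UMI was 4.27 in suffix 1 and 5.34 in suffix 2 in this name, against 2.81 and 3.46 over all cells. Without Mrpl33 it was 4.61 and 5.9, against 3.62 and 4.34 over all cells and 4.62 and 4.98 in neutrophils.

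**Figure D2:**
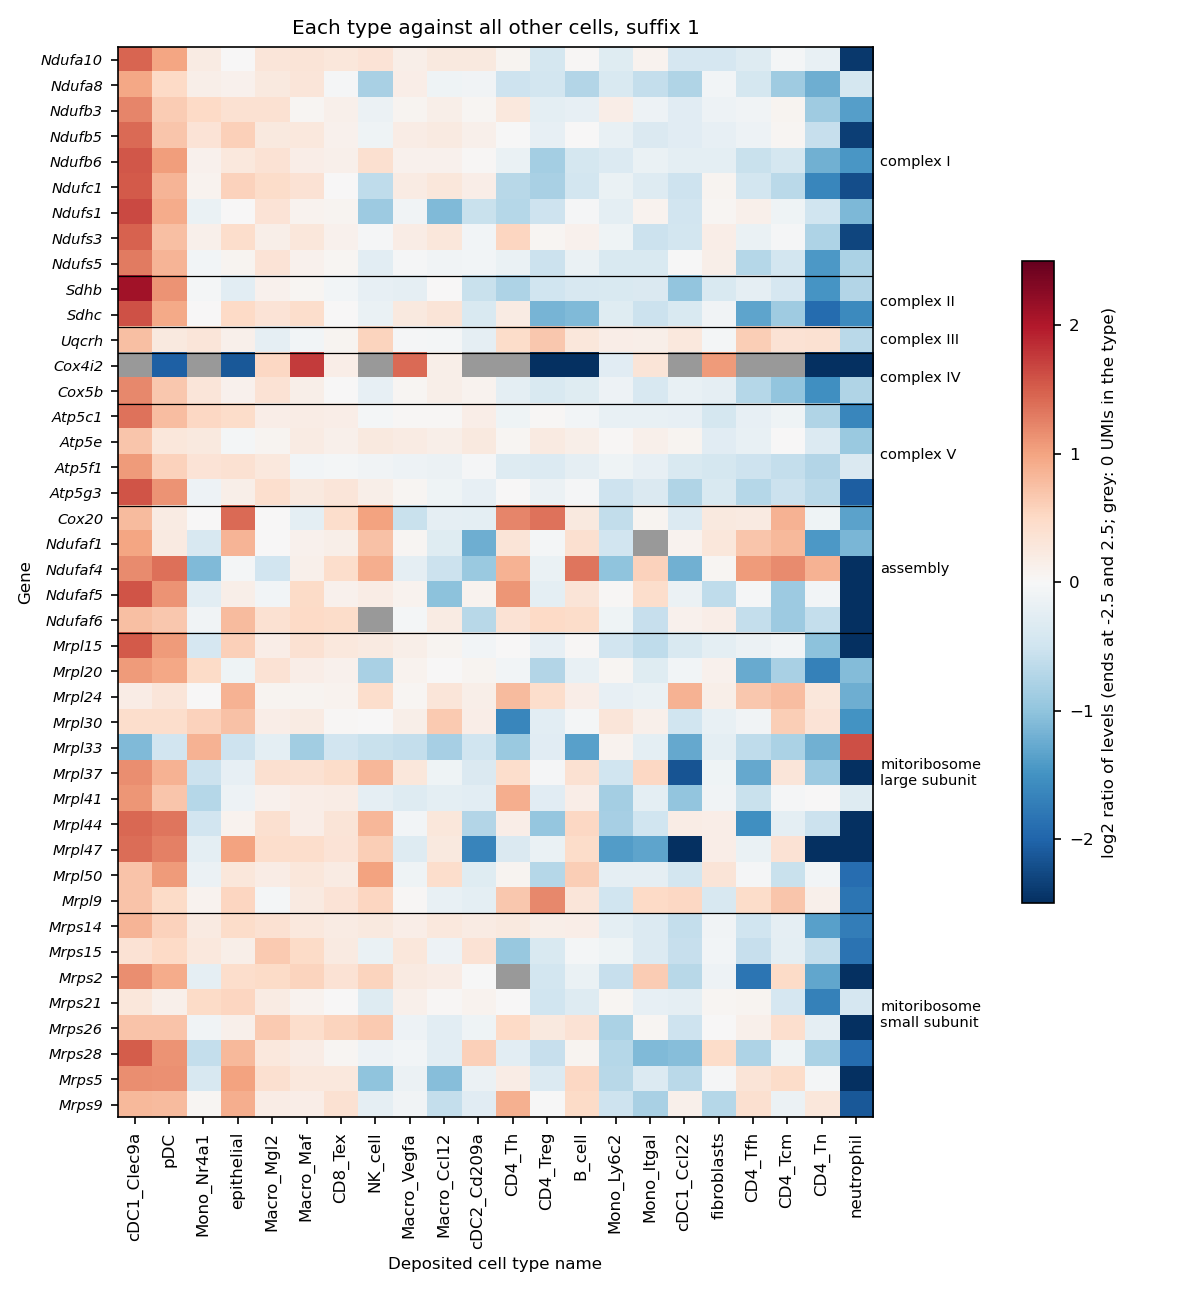
Log2 ratio of each of 42 members (rows, grouped by role) in each deposited name against all other cells of suffix 1, with names ordered by respiratory chain level. Red is higher and blue lower, colours end at -2.5 and 2.5, and grey marks 0 UMIs. The column of cDC1_Clec9a is red save for Mrpl33 and Cox4i2 and that of neutrophils blue save for Mrpl33.

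Within the name, the chain level differed between cells with and without osteoclast UMIs. From each cell 500 UMIs were drawn, cells named cDC1_Clec9a were split by how many of these came from Ctsk, Slc9b2 and Atp6v0d2, and levels were taken from all UMIs of the cells in a class. In suffix 1 the 27 cells with 0 such UMIs had a respiratory chain level of 207 [197, 218] and the 116 cells with 10 or more had 425 [420, 430]. The 7 cells with 1 to 9 had 422.5 [401, 445], so no grading above 0 was seen there, on few cells. That class was too small to be given in suffix 2. In suffix 2 the 8 cells with 0 had 234 [216, 254] and the 145 cells with 10 or more had 484 [479, 488]. Cells of the name without osteoclast UMIs therefore lay near the level of other cells. Their median UMI count was also lower, at 2626 against 6064 in suffix 1 and 2948 against 6284 in suffix 2, and the part of depth in this was not tested.

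The name pDC showed the same split. In suffix 1 its 92 cells with 0 osteoclast UMIs had a chain level of 202 [198, 207], its 47 cells with 1 to 9 had 322 [315, 328] and its 27 cells with 10 or more had 359 [352, 367]. In suffix 2 the 34, 22 and 20 cells of these classes had 234 [225, 243], 375 [363, 386] and 368 [358, 378]. Median UMI counts rose with the classes here too, from 3297 to 5741 and 9015 in suffix 1 and from 3168 to 4338 and 6832 in suffix 2, and the part of depth was not tested. Over all its cells, pDC had 11 members higher by 2-fold or more in suffix 1 (background 7.12%) and 0 in suffix 2 (background 4.38%), with median log2 ratios of 0.76 and 0.57. Sdhb had a log2 ratio of 1.13 there in suffix 1 and 0.77 in suffix 2, and Ndufaf4 1.37 and 0.90. Macrophage markers stood at 74.6 and 50.8 in pDC, below other cells. The mean of the name thus covers classes of cells with unlike chain levels and unlike depth.

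**Figure D3:**
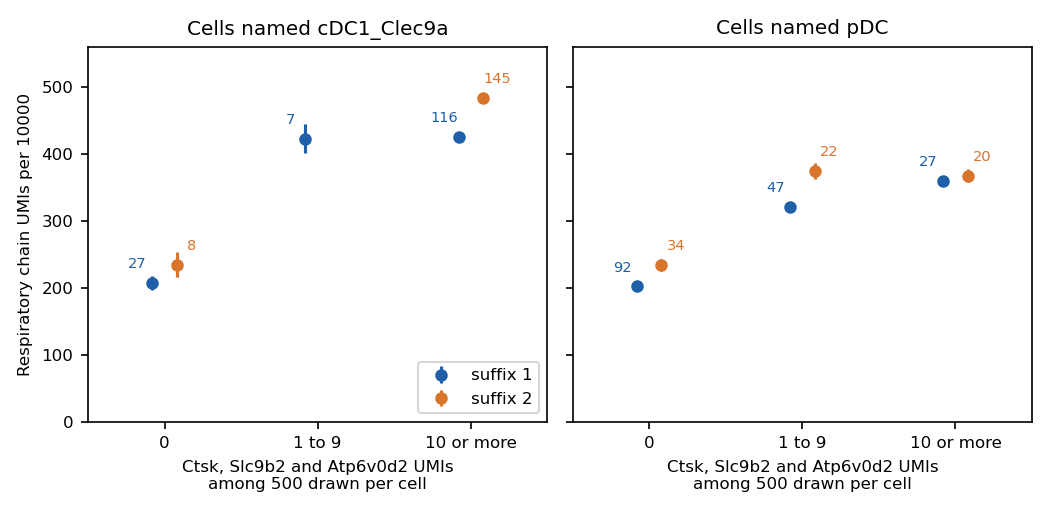
Respiratory chain level in UMIs per 10000 (vertical axis) of cells named cDC1_Clec9a (left) and pDC (right), by the number of Ctsk, Slc9b2 and Atp6v0d2 UMIs among 500 drawn per cell. Points are suffixes 1 and 2, bars are exact 95% counting intervals and the number beside each point is its count of cells. Cells with 0 such UMIs lie between 202 and 234 and those with 10 or more between 359 and 484.

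Neutrophils were at the other end. Of the 43 members, 33 were lower by 2-fold or more in suffix 1, where the background was 54%, and 36 in suffix 2, where it was 51.6%, with 33 shared. Most genes were thus lower in these cells, and the members went further, with median log2 ratios of -1.79 and -2.01 beside -1.18 and -1.07 for all genes. Mrpl33 was the only member higher in either suffix (background 10.6% and 10.5%). In UMIs per cell the chain gave 7.70 in neutrophils and 200 in cDC1_Clec9a in suffix 1. That scale also holds the difference in depth, with median UMI counts without S100a8 and S100a9 of 595 and 4845.

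Complexes differed in how far they lay below other cells. Complex I stood at 23.0 against 64.8 in suffix 1 and 22.2 against 78.8 in suffix 2, log2 ratios of -1.50 [-1.53, -1.47] and -1.83 [-1.90, -1.76]. Ndufa10, Ndufb5, Ndufs3 and Ndufc1 were lowest among its subunits, at -2.42, -2.36, -2.30 and -2.22 (log2) in suffix 1; suffix 2 gave -2.35, -2.32, -2.67 and -2.29. Ndufa8 was the nearest to other cells, at -0.44 and -0.95. Complex V stood at 41.2 against 84.2 in suffix 1 and 45.0 against 109 in suffix 2. Within it Atp5g3 was low (4.37 against 18.1, log2 -2.06, and -2.13 in suffix 2) and Atp5f1 much less so (17.2 against 22.2, log2 -0.37, and -0.73 in suffix 2), although both encode subunits of the same membrane part of the enzyme. Sdhb and Sdhc, both of complex II, had -0.73 and -1.60 on the log2 scale in suffix 1, and in suffix 2 they had -1.40 and -2.29.

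Some assembly factors and mitoribosome genes gave few UMIs in neutrophils, and others were lower but plainly detected. Ndufaf4, a complex I assembly factor, gave 42 UMIs in 5712 neutrophils of suffix 1, a level of 0.0937 [0.0676, 0.127] against 1.43 (log2 -3.94 [-4.41, -3.50]), and 9 UMIs in 925 neutrophils of suffix 2 (log2 -3.46 [-4.60, -2.53]). Mrps2, a small-subunit protein, gave 15 UMIs, a level of 0.0335 against 0.499 (log2 -3.90), and 4 UMIs in suffix 2 (log2 -3.03 [-4.91, -1.66]). Mrps5, also of the small subunit, gave 47 and 20 UMIs, with log2 ratios of -3.81 and -2.63. Mrps14, of the same subunit, still gave 1345 UMIs in suffix 1, a level of 3.0 against 9.90 (log2 -1.72, and -2.01 in suffix 2). Cox20, an assembly factor of complex IV, gave 259, a level of 0.578 against 1.47 (log2 -1.34, and -1.40 in suffix 2). The 5 assembly factors, most of whose UMIs in neutrophils were of Cox20, summed to 0.931 against 4.16 in suffix 1 and 1.17 against 4.80 in suffix 2, log2 ratios of -2.16 and -2.04, below those of any complex of the chain.

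Mrpl33, a small protein of the large mitoribosomal subunit, went the other way. Its level was 32.3 [31.8, 32.9] in neutrophils in suffix 1, 26.5 in Mono_Nr4a1, 15.8 in Mono_Ly6c2 and between 6.07 and 12.7 in the other names drawn. In suffix 2 it was 35.6 [31.1, 40.6] in the 26 cells of Mono_Nr4a1, 31.1 [29.7, 32.4] in neutrophils and 17.5 in Mono_Ly6c2, so the first of these names did not differ from neutrophils beyond the intervals. Against other cells the log2 ratio of Mrpl33 in neutrophils was 1.62 [1.59, 1.65] and 1.32 [1.25, 1.38], but with S100a8 and S100a9 in the total it was 0.41 and in UMIs per cell -0.0038, since neutrophils held 2.54 Mrpl33 UMIs per cell in suffix 1 beside far fewer UMIs of other genes. On the same scale the median of all genes in neutrophils moved by -1.62. Among cells thinned to 500 UMIs, 73.9% [72.5, 75.3] of neutrophils had an Mrpl33 UMI in suffix 1 (72.6% unthinned), 72.2% of Mono_Nr4a1, 34.7% of Macro_Maf (86.3% unthinned) and 26.0% of cDC1_Clec9a (82.4% unthinned). In suffix 2 these shares were 72.4%, 88.5%, 44.1% and 34.4%.

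Mrpl33 carried most of the mitoribosome sum in neutrophils. It gave 60.4% of their mitoribosome UMIs in each suffix, against 22.6% and 20.2% over all cells and 7.44% and 9.59% in cDC1_Clec9a. Without it the other 18 genes stood at 21.2 in neutrophils against 58.5 in other cells (log2 -1.46) and at 20.4 against 59.6 in suffix 2 (log2 -1.55), where the sum with Mrpl33 had given -0.37 and -0.49. The chain UMIs for each mitoribosome UMI in neutrophils changed with it from 1.83 to 4.62 in suffix 1, and in cDC1_Clec9a from 4.27 to 4.61. Mrpl33 overlaps Rbks on the other strand of chromosome 5 and the predicted gene Gm43809 on its own strand, and the strand setting of the counting is not given in the sources used here, so part of its UMIs may belong to these genes.

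**Figure D4:**
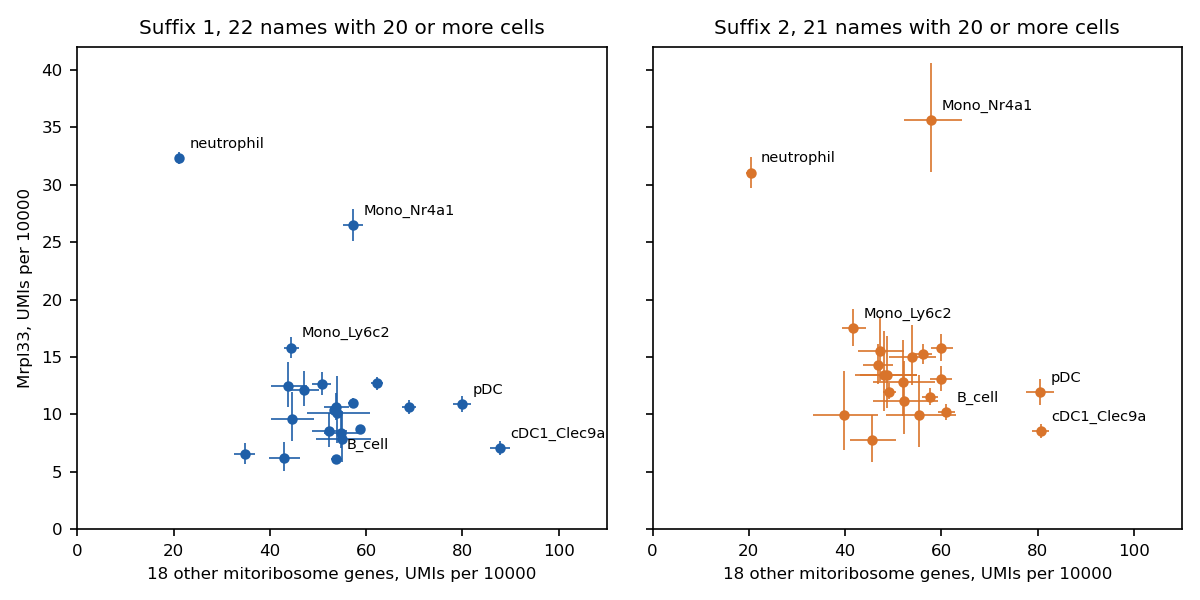
Level of Mrpl33 (vertical axis) against the summed level of the 18 other mitoribosome genes (horizontal axis), in UMIs per 10000, for names with 20 or more cells in suffix 1 (left) and suffix 2 (right). Each point is a name and bars are exact 95% counting intervals. Neutrophils lie at the upper left, at 32.3 and 31.1 for Mrpl33 and 21.2 and 20.4 for the others, and cDC1_Clec9a at the lower right.

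**Figure D5:**
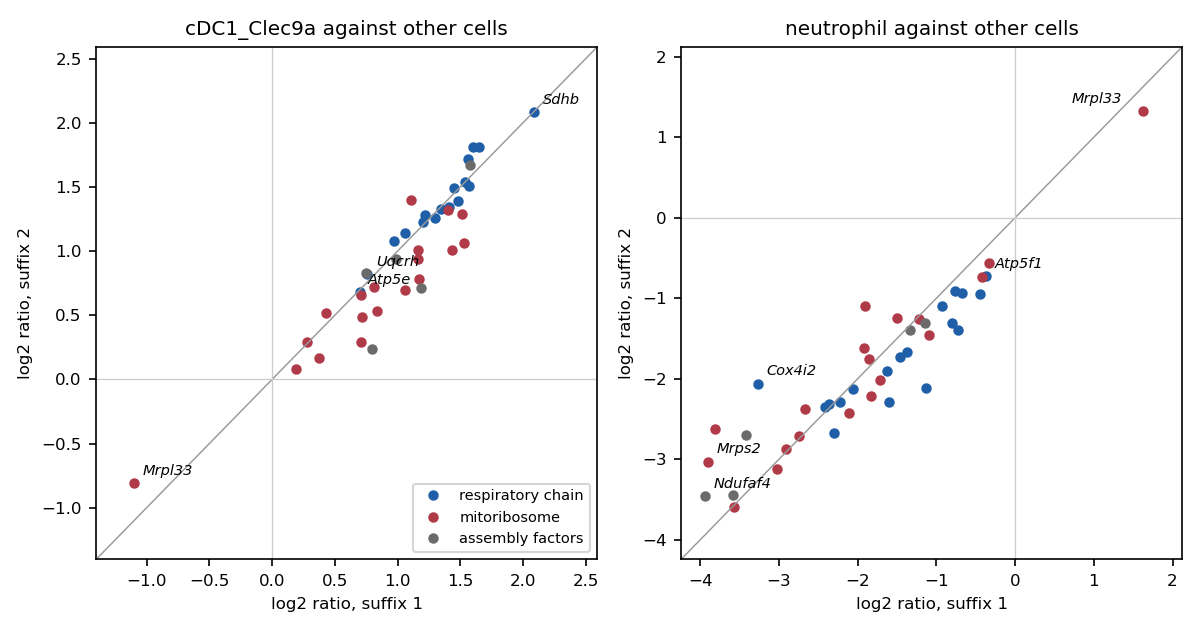
Log2 ratio to other cells of the 42 members of the heat map in suffix 1 (horizontal axis) and suffix 2 (vertical axis), for cDC1_Clec9a (left) and neutrophils (right). Those with UMIs in both suffixes are drawn, coloured by role, and the diagonal marks equal ratios. Sdhb is highest at 2.09 and 2.08 in cDC1_Clec9a, and Mrpl33 stands alone above 0 in neutrophils at 1.62 and 1.32.

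Among T cell names, CD4_Tn lay lowest. Its 462 cells in suffix 1 had 16 members lower by 2-fold or more (background 40.4%) and its 37 cells in suffix 2 had 18 (background 48.1%), with 11 shared, so the members were not lower more often than genes at large. Cox5b stood at 6.21 there in suffix 1, its lowest level among the names. Sdhc stood at 0.768 in CD4_Tn (log2 -1.92) and 1.29 in CD4_Treg (log2 -1.16), and in suffix 2 at 1.13 on 4 UMIs (log2 -1.68) and 1.21 on 10 UMIs (log2 -1.60). Uqcrh, in contrast, stood at 35.8 in CD4_Tn and 43.3 in CD4_Treg in suffix 1 (log2 0.39 and 0.67). In suffix 2 it stood at 34.9 and 37.9, beside 31.7 over all cells. The low chain level of CD4_Tn was thus not shared by Uqcrh, the only complex III member measured. Its counts are uncertain because of the pseudogenes named after it.

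Of the 5 assembly factors, Cox20 and Ndufaf4 followed the chain least across the names, and Ndufaf5, like the chain, was highest in cDC1_Clec9a in both suffixes (0.983 and 1.09). Cox20 was highest in CD4_Treg in both suffixes, at 3.28 [2.53, 4.17] and 5.09 [3.67, 6.87], with log2 ratios of 1.36 [0.99, 1.72] and 1.46 [0.98, 1.90]. In UMIs per cell the first of these was 0.46, under 2-fold. In suffix 1 it was nearly as high in epithelial cells, at 3.16, and their intervals overlapped. Cox20 overlaps Hnrnpu on the other strand, and 16 of the 43 members overlap some gene in this way. The strand setting of the counting is not given, so whether UMIs of Hnrnpu were counted with Cox20 is not known. Against a background of 13.5% and 14.2%, CD4_Treg had 2 members higher by 2-fold or more in suffix 1 (Cox20 and Mrpl9) and 1 in suffix 2. Ndufaf4 stood at 2.84 in pDC, 2.66 in B_cell and 2.54 in cDC1_Clec9a in suffix 1 and at 2.37, 2.00 and 2.01 in suffix 2, while in Mono_Nr4a1 and Mono_Ly6c2 it was at 0.546 and 0.589, and at 0.633 and 0.522 in suffix 2. High Ndufaf4 was thus found in names with high and with middling chain levels.

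Among the names drawn with 20 or more cells, Cox4i2 was highest in Macro_Maf, Macro_Vegfa and fibroblasts. Cox4i2 stood at 0.814 [0.714, 0.925] in Macro_Maf and 0.686 [0.596, 0.785] in Macro_Vegfa in suffix 1, log2 ratios of 1.75 and 1.41. In suffix 2 the order was turned, with 1.01 [0.803, 1.25] in Macro_Maf and 1.76 [1.50, 2.05] in Macro_Vegfa, log2 ratios of 1.17 and 2.41. Fibroblasts had 0.645 and 1.14, also past 2-fold in both suffixes, and no other name drawn with 20 or more cells exceeded 0.873 in either suffix. Cox4i2 was the only member higher by 2-fold or more in Macro_Maf (background 3.56% and 4.18%) and in Macro_Vegfa (background 1.74% and 3.05%). As a count, 1 of 43 members was close to or below these shares of all genes. Set directly against Macro_Maf, Macro_Mgl2 and Macro_Vegfa had 0 members past 2-fold in either direction in both suffixes, where 6.01% and 2.98% of all genes were higher and 1.13% and 1.99% lower in suffix 1, and 5.08%, 2.62%, 2.16% and 1.92% in suffix 2.

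Some pairs of names were also compared directly, though cDC1_Clec9a was not set against pDC. The name cDC1_Clec9a had macrophage markers at 13.7 in suffix 1 and 10.4 in suffix 2, where Macro_Maf had 551 and 549. Against Macro_Maf it had 20 of 43 members higher by 2-fold or more in suffix 1 (background 10.2%) and 21 in suffix 2 (background 11.9%), and its chain level was 405 against 203 (log2 1.00 [0.98, 1.02]) and 476 against 226 (log2 1.07 [1.05, 1.10]). Macro_Maf against neutrophils had 32 of 43 higher (background 44%) and 32 of the 39 with enough UMIs in suffix 2 (background 37.6%), with Mrpl33 alone lower (background 16.2% and 17.7%). Mono_Ly6c2 had a chain level of 170 against 217 in Mono_Nr4a1 in suffix 1 and 178 against 246 in suffix 2, log2 ratios of -0.35 [-0.39, -0.31] and -0.46 [-0.55, -0.38]. Of the members tested in that comparison, 0 of 36 passed 2-fold in suffix 1 (background 6.98% higher and 3.35% lower) and in suffix 2 only Mrpl33 of 27 was lower (background 3.44%, and 9.42% higher). CD4_Treg had a chain level of 178 against 125 in CD4_Tn and 200.2 against 155 in suffix 2, log2 ratios of 0.51 [0.44, 0.58] and 0.37 [0.23, 0.51]. In suffix 1, 5 of 34 members were higher there by 2-fold or more (background 17.5%), namely Cox5b, Mrps14, Cox20, Mrpl9 and Mrps21, and in suffix 2 it was 2 of 15 (background 25.9%). CD8_Tex against CD4_Treg had 3 of 43 higher (background 21.8%), Mrpl44, Sdhc and Cox4i2, and 2 of 37 in suffix 2 (background 17.3%). Cells named CD8_Tex also carried macrophage markers at 270 in suffix 1, against 35.7 for T cell markers, and their chain level was 217 [210, 224] in the 106 cells with 0 C1q UMIs and 188 [185, 190] in the 253 cells with 5 or more. In suffix 2 the macrophage markers stood at 135, and these chain levels were 240 [232, 247] in 91 cells and 213 [208, 218] in 52. Cells with 1 to 4 C1q UMIs had 214 [210, 219] in suffix 1 and 248 [242, 254] in suffix 2, near those with 0. Median UMI counts were 1162 with 0 and 5331 with 5 or more in suffix 1, and 1509 and 5821.5 in suffix 2. These classes were taken from unthinned cells, and the part of depth was not tested.

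Across the 22 names with 50 or more cells in suffix 1, most chain genes were high and low in the same names as the rest of the chain. Spearman's rho between a member's level and the summed level of the other chain genes had a median of 0.78 among chain genes (range -0.16 to 0.93), 0.57 among mitoribosome genes (-0.11 to 0.90) and 0.23 among assembly factors (0.10 for Ndufaf4 and 0.20 for Cox20 to 0.56). Over the 15 names of suffix 2 the medians were 0.79, 0.78 and 0.59, with Cox20 and Ndufaf4 at 0.42 and 0.45 the lowest assembly factors. Atp5c1 followed the chain most closely in suffix 1, at 0.93, and Uqcrh least, at -0.16. Among chain genes in suffix 2 these ends were Atp5g3, at 0.98, and Cox4i2, at 0.00, with Uqcrh at 0.19. Mrpl33, of the mitoribosome, lay at 0.10 in suffix 1 and at -0.53 in suffix 2. The points share their suffix and each name's total, so these values are descriptions.

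Other genes of mitochondrial pathways, from lists of the citric acid cycle, protein import, translation, mitochondrial DNA, biogenesis, electron carriers and fusion and fission, were measured for 50 genes. In cDC1_Clec9a, 17 of 50 were higher by 2-fold or more (background 10.2%) and 4 lower (background 33.8%) in suffix 1. In suffix 2 it was 14 (background 9.24%) and 5 (background 34.2%) of 49. In neutrophils 0 were higher in either suffix (background 10.6% and 10.5%). There 31 of 50 were lower in suffix 1 (background 54%) and 30 of 49 in suffix 2 (background 51.6%). These neutrophil shares lay not far above those of all genes. Idh3b and Fh1, both of the citric acid cycle, were at log2 1.56 and 1.37 in cDC1_Clec9a and at -2.20 and -3.86 in neutrophils in suffix 1; suffix 2 gave 1.73, 1.25, -2.27 and -3.41. Hspd1 and Hspe1, the mitochondrial chaperonin and its lid, had 1.36 and 1.35 in cDC1_Clec9a and -3.59 and -3.54 in neutrophils, and 1.00, 1.15, -3.21 and -3.39 in suffix 2. Timm10, a chaperone of protein import, had 1.53 and -3.33, and 1.26 and -2.91 in suffix 2. Gabpb1, a subunit of the factor GABP, lay the other way, at log2 -1.09 in cDC1_Clec9a and 0.91 in neutrophils in suffix 1; suffix 2 gave -1.11 and 0.63, and the neutrophil values did not reach 2-fold. Gpd2, of the glycerol phosphate shuttle, stood at -1.30 and -1.94 in cDC1_Clec9a, and so not all genes that feed the chain were high there. The 5 genes of fusion and fission had medians of 0.47 in cDC1_Clec9a and -0.06 in neutrophils in suffix 1, with none past 2-fold, and in suffix 2 Mfn2 and Oma1 were higher in cDC1_Clec9a and Mfn1, Mfn2 and Oma1 lower in neutrophils.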

How the data were processed

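UMI counts per gene and cell were used as deposited by the authors, from sorted cells of 4 samples in 2 groups. Per the submitters' processing notes, the tools included Cell Ranger and Seurat and the genome was GRCm38 (mm10), with no version or role stated. How cells were filtered and named is not given in the sources used here. Of 45781 annotated barcodes, 16383 had counts, all of suffix 1 and 26.9% of suffix 2, and 1 incomplete gene row was left out. The planned tests between groups were not run, since suffixes could not be tied to samples. UMIs were summed over the cells of a name within a suffix and divided by all counted UMIs other than S100a8 and S100a9. Intervals of levels are exact Poisson and those of ratios exact conditional binomial, at 95%. Genes with 50 or more UMIs over both sides entered a comparison, and 2-fold was the limit for calling it higher or lower. Thinned cells had 500 UMIs drawn without replacement, and shallower cells were left out. Shares of cells have exact Clopper-Pearson intervals.

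The members and lists were chosen with earlier results of these data known. The members to be named were the 10 with the most UMIs, both of complex II and, for names with 200 or more cells in suffix 1, the 3 with the highest and the 3 with the lowest ratio past the fold in both suffixes; other members were named after their values were seen. Coordinates and overlaps come from GENCODE on GRCm38 and promoters from RefSeq. The ratio procedure was tested on simulated data. Alternatives were another denominator, UMIs per cell, a mean over cells, suffix 2, thinning, 20 UMIs as the minimum, other comparison groups, cells without C1q, and, added after seeing the data, the mitoribosome without Mrpl33. Individual values of 1 gene and 1 cell type name are not reported here, though both enter sums and counts. Computation used pandas 2.3.3, scipy 1.17.1 and numpy 2.4.6 under Python 3.11.15, with figures by matplotlib 3.10.9.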

Additional observations from a re-analysis of the deposited data

How the results depend on the processing

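The summed ratios of the chain and of the mitoribosome in cDC1_Clec9a and in neutrophils against other cells kept their direction under every alternative run, and those of single complexes, of the assembly factors and between names were run in both suffixes only. The log2 ratio of the respiratory chain in cDC1_Clec9a, 1.20, became 1.60 with S100a8 and S100a9 in the total, 2.77 in UMIs per cell, 1.45 as a mean over cells, 1.32 in thinned cells, 1.04 without neutrophils among the other cells and 1.22 without cells of 5 or more C1q UMIs. In the same order the mitoribosome there, 0.55, became 0.95, 2.12, 0.66, 0.58 and 0.49, and it was 0.40 in suffix 2 and 0.82 without Mrpl33. For neutrophils the chain, -1.07, became -2.28, -2.69, -0.96, -1.0, -1.02 (against macrophage names only) and -1.09, and it was -1.34 in suffix 2. Their mitoribosome, -0.37, became -1.57, -1.99, -0.28, -0.25 and -0.32, and it was -0.49 in suffix 2 and -1.46 without Mrpl33. The 26 members higher in cDC1_Clec9a became 41 in UMIs per cell and lay between 21 and 37 otherwise, and the 33 lower in neutrophils lay between 30 and 42. Except for suffix 2, the share of all genes past the fold was not counted under these settings. These counts therefore have no background there. With S100a8 and S100a9 in the total the median of all genes moved by -1.21 in neutrophils and 0.40 in cDC1_Clec9a, and in UMIs per cell by -1.62 and 1.57. Of 240 values of the members named, 237 kept their direction. Among them, 198 belonged to ratios past 2-fold, of which 173 remained past it and 25, from 12 ratios, did not, such as Sdhc in CD4_Treg at -0.77 with S100a8 and S100a9 in the total and Ndufaf4 in B_cell at 0.33 in UMIs per cell. The exceptions were Mrpl33 in UMIs per cell (-0.0038 in neutrophils and 0.46 in cDC1_Clec9a) and Mrpl47 in Mono_Ly6c2, which had rested on 11 UMIs, in thinned cells (0.09). With S100a8 and S100a9 in the total, Mrpl33 in neutrophils stood at 0.41, under 2-fold.

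No paired analysis was possible because the sources tie no suffix to a sample, and no replicate was left out for the same reason. Intervals cover counting error alone, and differences between animals or samples were not measured. Names with under 50 cells in suffix 2, such as Mono_Nr4a1 and CD4_Tn, allow only coarse ratios.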
